A study of Homo sapiens with 14 samples.

Results

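ELF3, EHF, GRHL1, GRHL2, GRHL3, ESRP1, ESRP2, OVOL1 and OVOL2 are 9 human genes for transcription and splicing factors that are known for their use in epithelial cells. They were followed in PANC-1, an established line of human pancreatic carcinoma cells. A probe set, the group of array probes that reads 1 transcript or a few, was taken where it named exactly 1 of these genes. This gave 28 probe sets of the 49193 on the array, and each gene is described by its brightest probe set, as averaged over the 14 arrays, so that all 9 of 9 genes were measured among 18129 genes. No limit on brightness was set.

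All cells were first held for 24 h in 1% serum. The TGFb1+acriflavine group (3 arrays) then received TGFb1 at 5 ng/ml together with acriflavine, a mixture of acridine dyes, at 2.5 µM for 48 h. The TGFb1+valproate group (3 arrays) received the same TGFb1 together with sodium valproate, an inhibitor of histone deacetylases, at 2 mM for 48 h. The TGFb1 group (4 arrays) received TGFb1 alone, and the control group (4 arrays) received no TGFb1 for the same time. TGFb1 is a cytokine that drives epithelial-mesenchymal transition, and both drugs were given as inhibitors of it. One label field calls the controls untreated and the protocol names a vehicle. All groups came from 1 cell line, the replicates are called biological, and no group analysed here received either drug without TGFb1. Values are log2 intensities, a change is a difference of group means on the log2 scale with its standard error (SE), and a gene rose or fell where its p, adjusted over all 18129 genes in a limma fit, was at most 0.05. Both drug groups were set against the same TGFb1 arrays, and those arrays also stand in the comparison with control, so the 3 comparisons are not independent.

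ELF3 and EHF belong to the ETS family and act in the differentiation of epithelia. The grainyhead-like factors GRHL1, GRHL2 and GRHL3 bind promoters and enhancers of cell junction and barrier genes, and GRHL2 and ZEB1 are known to repress each other. OVOL1 and OVOL2 are zinc finger repressors that hold down mesenchymal genes, ZEB1 among them. ESRP1 and ESRP2 are RNA-binding proteins that set the epithelial splice forms of FGFR2, CD44, CTNND1 and ENAH, and SNAI and ZEB repressors are known to lower the genes of this programme.

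Median log2 intensity over all 49193 probe sets was 7.16 to 7.21 per array. Replicate 4 of the TGFb1 group, replicate 2 of the TGFb1 group and replicate 4 of the control group lay farthest from their group means over all genes, with standard deviations (SD) of 0.332, 0.232 and 0.230 log2 units against 0.0831 to 0.146 for the other 11 arrays. Only the TGFb1 and control groups held an array numbered 4. Results on TGFb1 are therefore also given within the first 3 replicate numbers and between the arrays numbered 4. The keratins KRT8 (12.8 to 14.1) and KRT18 (13.1 to 14.3) were bright on every array. Of the markers of other cell types, PTPRC of leukocytes (3.63 to 4.05), CDH5 of endothelium (5.08 to 5.49), DCN of fibroblasts (3.88 to 4.44) and ALB of hepatocytes (4.62 to 5.20) were dim on every array. Others on the same lists reached the array medians on at least some arrays, among them CD68 (7.98 to 9.41) and LAPTM5 (6.29 to 7.59) for leukocytes, ESAM (6.28 to 9.82) for endothelium, DES (7.24 to 7.64) for fibroblasts and stellate cells, and APOA1 (7.11 to 7.73) and TTR (7.01 to 7.47) for hepatocytes.

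The promoters of ELF3 and GRHL3, which had the lowest adjusted p-values of the 9 genes in the comparison of TGFb1 with control, are shown because both hold an E-box of the form CACCTG, the element that SNAI and ZEB repressors are known to bind. Each runs from 250 bases before to 50 bases after the gene's start on the plus strand of GRCh38.p14, from RefSeq, with the E-boxes in capitals. The ELF3 promoter lies at chr1:202010337-202010636 and the GRHL3 promoter at chr1:24319107-24319406.
ELF3: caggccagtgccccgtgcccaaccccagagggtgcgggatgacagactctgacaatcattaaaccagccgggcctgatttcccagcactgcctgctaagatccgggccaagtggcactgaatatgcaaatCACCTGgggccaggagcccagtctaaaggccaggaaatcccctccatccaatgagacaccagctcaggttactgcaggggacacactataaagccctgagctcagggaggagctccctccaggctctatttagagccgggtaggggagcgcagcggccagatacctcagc
GRHL3: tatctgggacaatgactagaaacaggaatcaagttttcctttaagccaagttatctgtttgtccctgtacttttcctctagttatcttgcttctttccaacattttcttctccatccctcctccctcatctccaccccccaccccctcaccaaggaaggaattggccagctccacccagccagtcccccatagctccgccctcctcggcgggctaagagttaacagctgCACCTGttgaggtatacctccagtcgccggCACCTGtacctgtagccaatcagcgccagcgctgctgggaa
The ELF3 E-box starts 120 bases before the start site, and those of GRHL3 start 21 bases before and 9 bases after it. CACCTG, searched on both strands, was found in 20.6% of 35116 promoter windows of the same length, so a match is common and says nothing about binding. The windows of 1 chromosome were left out of this and the following shares. The ETS motif CCGGAAGT (4.14% of windows), the grainyhead motifs AACCGGTT (0.134%) and AACNNGTT (3.52%, which holds every AACCGGTT match) and the SMAD motif GTCTAGAC (0.202%) were not in these windows. The GRHL1 window at chr2:9951443-9951742 held none of the motifs searched, and 1 EHF window held the SMAD motif CAGACA, which 16.9% of windows hold. A second GRHL3 window, at chr1:24322790-24323089, held no CACCTG. GRHL2, ESRP1, ESRP2, OVOL1 and OVOL2 are named only.

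The first question was how the 9 genes responded to TGFb1 alone. ELF3, GRHL1, GRHL3, ESRP1 and ESRP2 fell, and for each of them all 4 TGFb1 arrays lay below all 4 control arrays, as did those of 6.72% of all genes. EHF, GRHL2, OVOL1 and OVOL2 did not pass, and their arrays overlapped between the groups. The count of 5 of 9 genes that fell stands beside 6.05% of all genes that fell and 5.03% that rose, 11.1% together. The median change of the 9 genes was -0.57, beside 0.02 over all genes. In these bulk samples, less RNA per cell and fewer cells that hold the RNA cannot be told apart.

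**Figure D1:**
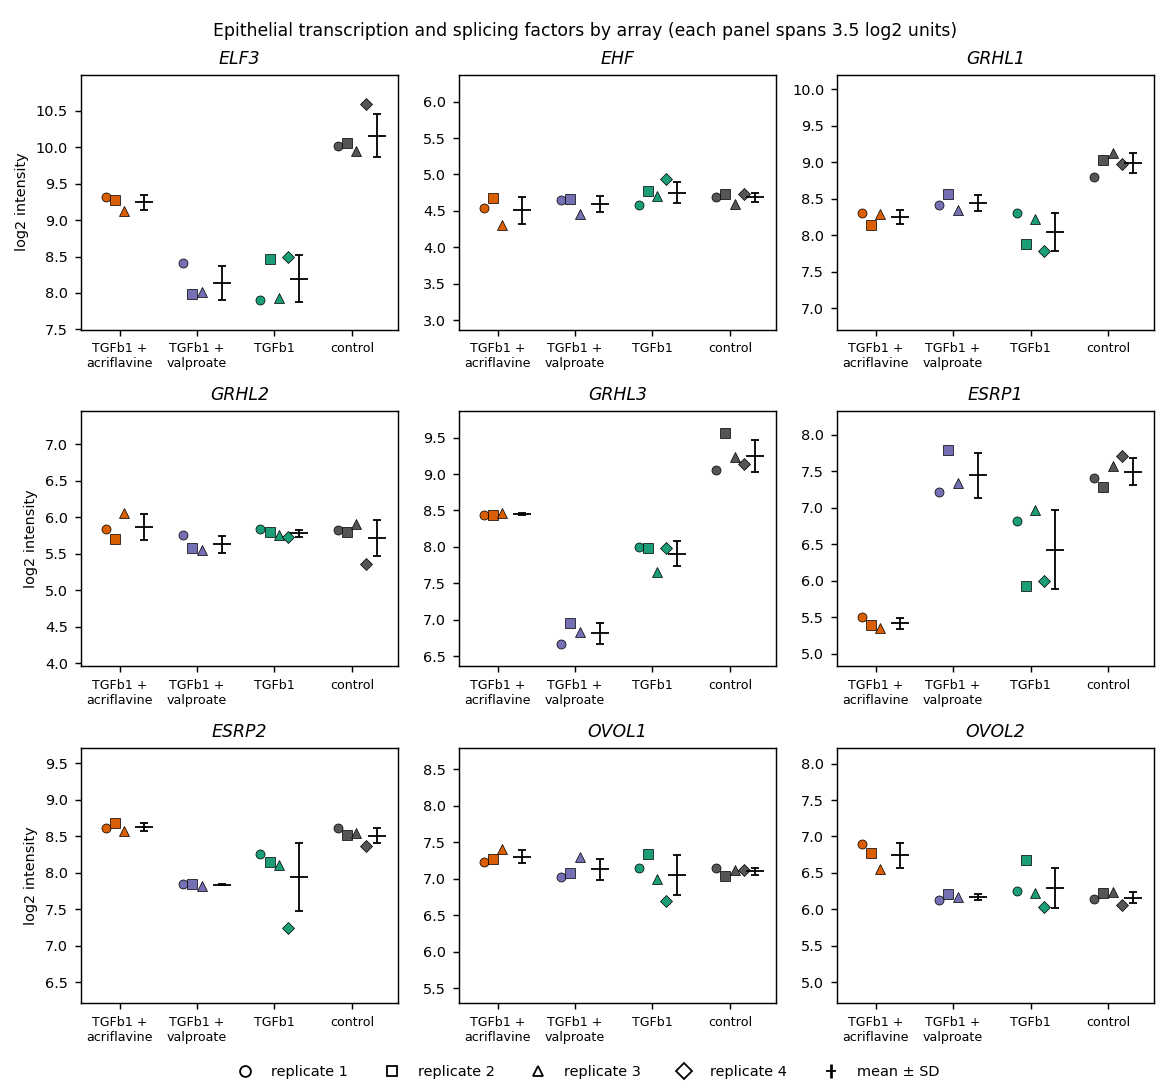
Log2 intensity of the kept probe set of each gene (y axis, each panel spanning the same range) in the TGFb1+acriflavine, TGFb1+valproate, TGFb1 and control arrays (x axis). Each point is an array with its replicate number as the symbol, and the bar beside it is the group mean ± SD. ELF3, GRHL1, GRHL3, ESRP1 and ESRP2 lie lower on all 4 TGFb1 arrays than on any control array, and ESRP1 is at 5.36 to 5.50 on the acriflavine arrays.

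ELF3 is an ETS factor that acts in the differentiation of simple epithelia and in epithelial inflammation. Its levels were 7.90, 8.47, 7.93 and 8.49 on the TGFb1 arrays, against 10.02, 10.06, 9.95 and 10.59 on the control arrays. No TGFb1 array came within a log2 unit of a control array. ELF3 fell by 1.96 ± 0.167 (SE), a 3.89-fold lower level, with an adjusted p of 2.43e-06. By the size of its change it was number 49 of 18129 genes. The change was -1.91 within replicates 1 to 3 and -2.10 between the arrays numbered 4.

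With acriflavine, ELF3 was at 9.32, 9.28 and 9.13, all above the 4 arrays with TGFb1 alone and all below the 4 control arrays. It rose by 1.05 ± 0.180 against TGFb1 alone (2.06-fold, adjusted p 0.000463) and its change against control was -0.91 ± 0.180, a fall (adjusted p 0.00124). With valproate it was at 8.41, 7.99 and 8.02, within the range of the TGFb1 arrays. The change of -0.06 ± 0.180 against TGFb1 alone did not pass (adjusted p 0.882), and against control ELF3 fell by 2.02 (adjusted p 1.39e-06). The direct comparison of acriflavine with valproate gave 1.10 ± 0.193 (adjusted p 0.000351).

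ELF3 has 3 probe sets, which were alike for TGFb1 and unlike for acriflavine. The kept probe set (mean 8.97 over all arrays) and another (mean 8.76) changed by -1.96 and -1.97 with TGFb1 and rose by 1.05 and 1.06 with acriflavine. The other one, at a mean of 6.41, fell by 1.18 ± 0.0995 with TGFb1, but its change with acriflavine was 0.13 ± 0.107 and did not pass (adjusted p 0.457). For acriflavine minus valproate it gave 0.19 ± 0.115 and did not pass (adjusted p 0.236), while the first 2 each gave 1.10. ELF3 thus rose with acriflavine by 2 of its 3 probe sets. These 2 ran close together on every array, for example at 9.32 and 9.11 in acriflavine replicate 1. They may therefore not be separate readings.

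EHF, an ETS factor close to ELF3, was read by 8 probe sets. The kept one was dim, at 4.30 to 4.68 with acriflavine, 4.46 to 4.67 with valproate, 4.59 to 4.94 with TGFb1 alone and 4.60 to 4.73 in control. The change with TGFb1 was 0.07 ± 0.0948 (adjusted p 0.754), and over the 8 probe sets it ran from -0.19 to 0.18. The kept probe set changed by 0.02 within replicates 1 to 3 and by 0.21 between the arrays numbered 4. No EHF probe set passed in any of the 6 comparisons. Without acriflavine replicate 2 the kept probe set fell by 0.33 with acriflavine against TGFb1 alone (adjusted p 0.0446). With all arrays, the change in that comparison ran from -0.245 for the kept probe set to 0.264 for another, so the EHF probe sets had opposite signs. A change that did not pass is not shown to be absent.

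Among the grainyhead-like factors, GRHL3 and GRHL1 fell with TGFb1 and GRHL2 did not pass. GRHL3, known for closure of the neural tube and for the skin barrier, was at 8.0, 7.98, 7.66 and 7.98 on the TGFb1 arrays, against 9.06, 9.56, 9.23 and 9.13 on the control arrays. The groups were more than a log2 unit apart. GRHL3 fell by 1.34 ± 0.112 (2.53-fold lower, adjusted p 1.95e-06), with -1.40 within replicates 1 to 3 and -1.15 between the arrays numbered 4.

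The drugs moved GRHL3 in opposite directions. It was at 8.44, 8.44 and 8.47 with acriflavine and at 6.67, 6.95 and 6.84 with valproate, so that every acriflavine array lay above and every valproate array below the 4 arrays with TGFb1 alone. Against TGFb1 alone GRHL3 rose by 0.54 ± 0.121 with acriflavine (1.46-fold, adjusted p 0.00308) and fell by 1.09 ± 0.121 with valproate (2.13-fold lower, adjusted p 1.55e-05). The difference between the drugs, acriflavine minus valproate, was 1.63 ± 0.129 (adjusted p 2.36e-07). Against control GRHL3 fell with both drugs, with a change of -0.79 ± 0.121 for acriflavine (adjusted p 0.000153) and of -2.43 ± 0.121 for valproate (5.38-fold lower, adjusted p 4.25e-09). GRHL3 has 1 probe set on the array, as does ESRP2.

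GRHL1, a regulator of desmosomal cadherin in skin, was at 8.31, 7.87, 8.22 and 7.78 on the TGFb1 arrays, against 8.80, 9.04, 9.13 and 8.97 on the control arrays. It fell by 0.94 ± 0.116 (1.92-fold lower, adjusted p 7.59e-05), and the other 2 GRHL1 probe sets changed by -0.56 and -0.58 and also passed. The change was -0.86 within replicates 1 to 3 and -1.19 between the arrays numbered 4. With acriflavine GRHL1 was at 8.31, 8.15 and 8.30, overlapping the TGFb1 arrays, and its change of 0.21 ± 0.125 did not pass (adjusted p 0.268).

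With valproate GRHL1 was at 8.42, 8.57 and 8.34, all above the TGFb1 arrays and all below the control arrays. It rose by 0.40 ± 0.125 against TGFb1 alone (1.32-fold, adjusted p 0.0345) and fell by 0.54 ± 0.125 against control (adjusted p 0.00476). The rise was a call of the kept probe set only: the other 2 gave 0.09 and 0.19, with adjusted p-values of 0.658 and 0.225. It was also lost with each valproate array left out in turn (adjusted p 0.0816, 0.146 and 0.0516) without TGFb1 replicate 2 (0.0814) or 4 (0.0604), and in a fit of the 2 groups alone (0.114). Acriflavine and valproate did not differ in GRHL1 by the test (-0.19 ± 0.134, adjusted p 0.313).

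GRHL2, the grainyhead factor most often named as a guard of the epithelial state in carcinoma cells, was dim at 5.70 to 6.06 with acriflavine, 5.55 to 5.76 with valproate, 5.73 to 5.83 with TGFb1 alone and 5.36 to 5.90 in control. The change with TGFb1 was 0.06 ± 0.114 (adjusted p 0.830), and over its 5 probe sets it ran from -0.18 to 0.16. The kept probe set changed by -0.05 within replicates 1 to 3 and by 0.37 between the arrays numbered 4, with opposite signs. No GRHL2 probe set passed in any of the 6 comparisons.

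OVOL2, a repressor of ZEB1 and other mesenchymal genes, changed with acriflavine and not by the test with TGFb1. It was at 6.25, 6.68, 6.22 and 6.03 on the TGFb1 arrays, against 6.14, 6.22, 6.23 and 6.06 on the control arrays, and the groups overlapped (0.13 ± 0.117, adjusted p 0.570). The other OVOL2 probe set had the opposite sign and did not pass either (-0.40 ± 0.212, adjusted p 0.299). The kept probe set changed by 0.19 within replicates 1 to 3 and by -0.03 between the arrays numbered 4. With acriflavine it was at 6.90, 6.77 and 6.56, the lowest of them below TGFb1 replicate 2 and all of them above the control arrays. OVOL2 rose by 0.45 ± 0.126 against TGFb1 alone (1.36-fold, adjusted p 0.0146) and by 0.58 ± 0.126 against control (adjusted p 0.00248). The rise against TGFb1 alone was lost without acriflavine replicate 1 (0.37, adjusted p 0.0860) or replicate 2 (0.43, 0.0523), and in a fit of the 2 groups alone (0.0763).

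The other OVOL2 probe set rose by 1.35 ± 0.229 with acriflavine against TGFb1 alone (adjusted p 0.000464) and by 0.95 against control (adjusted p 0.00532). With valproate OVOL2 was at 6.12, 6.21 and 6.17, among the TGFb1 and control arrays (-0.13 ± 0.126 against TGFb1 alone, adjusted p 0.576). OVOL2 was thus higher with acriflavine than with valproate by 0.57 ± 0.135 (adjusted p 0.00363). OVOL1, its relative in skin and germ cell differentiation, was at 7.23 to 7.40 with acriflavine, 7.02 to 7.29 with valproate, 6.69 to 7.34 with TGFb1 alone and 7.03 to 7.14 in control. Its change with TGFb1 was -0.06 ± 0.115 (adjusted p 0.827), with 0.06 within replicates 1 to 3 and -0.43 between the arrays numbered 4. With acriflavine against TGFb1 alone its change was 0.26 ± 0.124 (adjusted p 0.152). Without TGFb1 replicate 2 that OVOL1 change was 0.35 and passed (adjusted p 0.0277). The other 2 OVOL1 probe sets changed by 0.0016 and -0.0087 with TGFb1, and by 0.27 and 0.18 with acriflavine against TGFb1 alone, and did not pass. For acriflavine minus valproate 1 of them passed, at 0.44 ± 0.136 (adjusted p 0.0216), while the kept probe set gave 0.17 (adjusted p 0.368).

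The splicing factors ESRP1 and ESRP2 both fell with TGFb1, and under acriflavine they moved in opposite directions. ESRP1 was at 6.82, 5.93, 6.96 and 5.99 on the TGFb1 arrays, against 7.41, 7.29, 7.57 and 7.71 on the control arrays. TGFb1 replicates 2 and 4 were about a log2 unit below replicates 1 and 3, and all lay below the control arrays. ESRP1 fell by 1.07 ± 0.212 (2.10-fold lower, adjusted p 0.00382). The change was -0.85 within replicates 1 to 3 and -1.72 between the arrays numbered 4.

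With acriflavine ESRP1 was at 5.50, 5.39 and 5.36, below every other array. It fell by 1.01 ± 0.229 against TGFb1 alone (2.01-fold lower, adjusted p 0.00359) and changed by -2.08 ± 0.229 against control (4.23-fold lower, adjusted p 9.72e-06). With valproate ESRP1 was at 7.21, 7.80 and 7.34, above the TGFb1 arrays and overlapping the control arrays. It rose by 1.02 ± 0.229 against TGFb1 alone (2.03-fold, adjusted p 0.0046), and the change against control was -0.05 ± 0.229 (adjusted p 0.923). Acriflavine minus valproate was -2.03 ± 0.244 (adjusted p 1.27e-05). The other ESRP1 probe set fell by 0.79 with TGFb1 (adjusted p 0.0166), and it fell by 0.78 with acriflavine against TGFb1 alone (adjusted p 0.0108). Its change with valproate was 0.60 and did not pass (adjusted p 0.056).

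ESRP2, which shares targets with ESRP1, was at 8.26, 8.15, 8.11 and 7.25 on the TGFb1 arrays, against 8.61, 8.52, 8.55 and 8.37 on the control arrays. Replicate 4 of the TGFb1 group was far below the other 3. ESRP2 fell by 0.57 ± 0.166 (1.48-fold lower, adjusted p 0.0407). Without TGFb1 replicate 4 the change was -0.33 and the adjusted p 0.00586, and without both arrays numbered 4 it was -0.38 with an adjusted p of 0.00138. Between the arrays numbered 4 it was -1.12. The call was lost without control replicate 1, 2 or 3 (adjusted p 0.0971, 0.0852 and 0.0979), without any 1 of the 6 drug arrays (0.0555 to 0.0588) and in a fit of the TGFb1 and control arrays alone (0.166).

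With acriflavine ESRP2 was at 8.61, 8.69 and 8.58, above all TGFb1 arrays and overlapping the control arrays. It rose by 0.68 ± 0.179 against TGFb1 alone (1.61-fold, adjusted p 0.00943), or by 0.45 without TGFb1 replicate 4 (adjusted p 0.000366). In a fit of the acriflavine and TGFb1 arrays alone the call was lost (adjusted p 0.0604). The change against control was 0.12 ± 0.179 (adjusted p 0.706). With valproate ESRP2 was at 7.84, 7.85 and 7.83, between TGFb1 replicate 4 and the other TGFb1 arrays, and the change of -0.10 ± 0.179 did not pass (adjusted p 0.768). Without TGFb1 replicate 4 ESRP2 fell by 0.34 with valproate (adjusted p 0.00494). Against control it fell by 0.67 ± 0.179 (adjusted p 0.0120). Acriflavine minus valproate was 0.79 ± 0.192 (adjusted p 0.00452), the opposite sign to ESRP1.

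**Figure D2:**
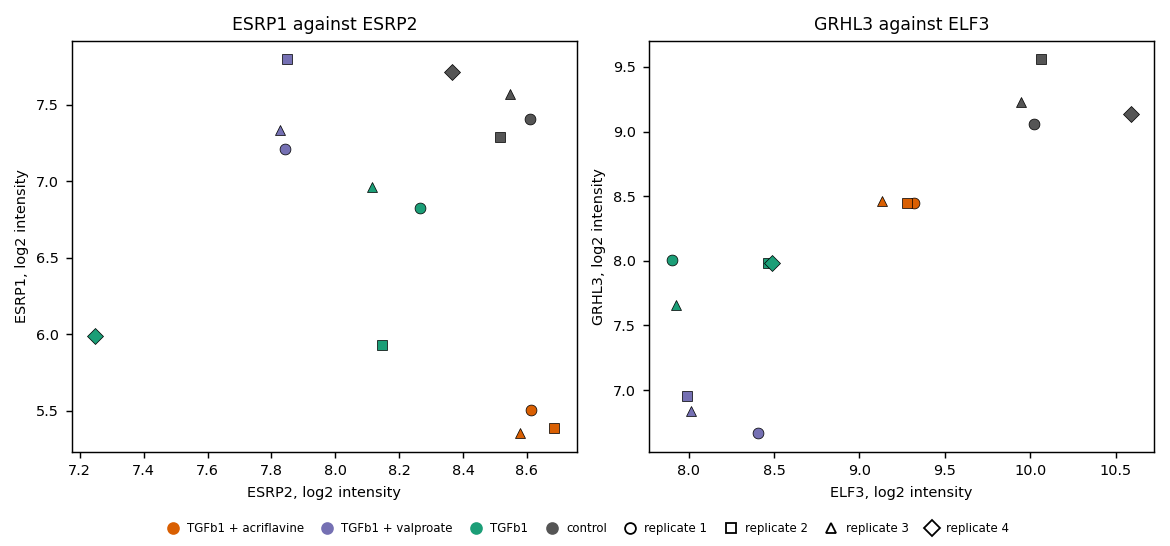
ESRP1 against ESRP2 and GRHL3 against ELF3 (log2 intensity on both axes of each panel), 1 point per array with the group as the colour and the replicate number as the symbol. The acriflavine arrays have ESRP2 at 8.58 to 8.69 with ESRP1 at 5.36 to 5.50, and the valproate arrays have ESRP2 at 7.83 to 7.85 with ESRP1 at 7.21 to 7.80.

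Set by comparison, acriflavine against TGFb1 alone gave 4 of 9 genes that rose (ELF3, ESRP2, GRHL3 and OVOL2) beside 16.4% of all genes, and 1 that fell (ESRP1) beside 12.3%, with 28.7% of all genes called in either direction. Valproate against TGFb1 alone gave 2 that rose (ESRP1 and GRHL1) beside 11.5% of all genes and 1 that fell (GRHL3) beside 10.2%, 21.7% together, so 3 of 9 was closer to the background than 5 of 9 was for TGFb1. The median change of the 9 genes was 0.26 with acriflavine and -0.10 with valproate, beside -0.0021 and -0.02 over all genes. Against control, acriflavine gave 5 calls of 9 (31.4% of all genes were called) and valproate gave 4 (25.4%). Acriflavine against valproate gave 4 that were higher (ELF3, ESRP2, GRHL3 and OVOL2) beside 18.9% of all genes and 1 that was lower (ESRP1) beside 16.6%, 35.5% together.

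**Figure D3:**
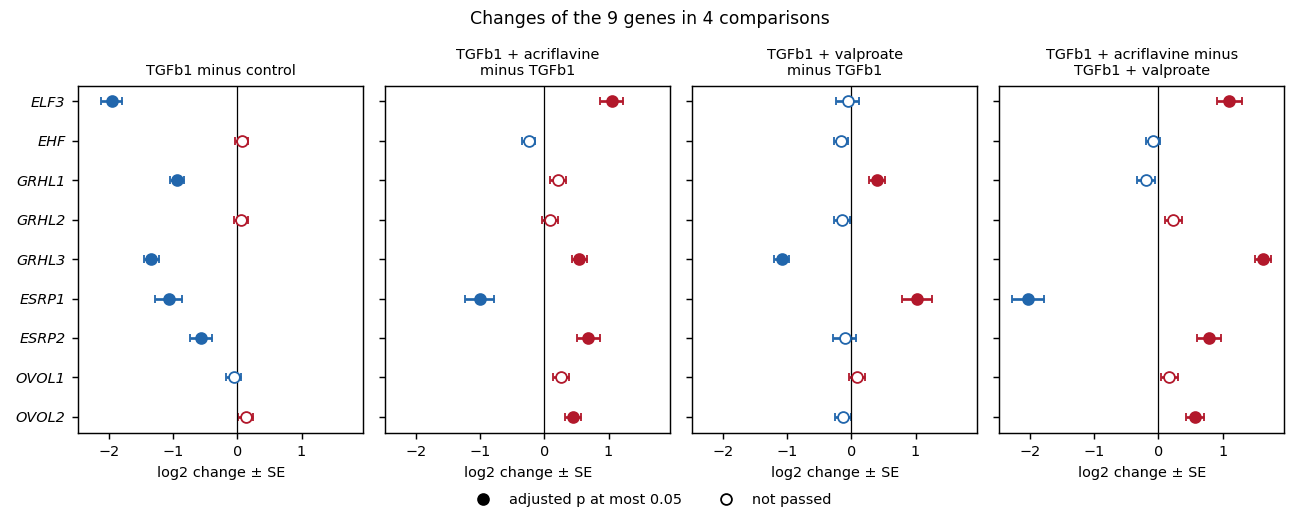
Log2 change ± SE (x axis) of the 9 genes (y axis) in the comparisons of TGFb1 with control, each drug with TGFb1 alone and acriflavine with valproate. Filled points passed an adjusted p of 0.05, open points did not, and red and blue mark changes above and below 0. ESRP1 lies at -1.01 with acriflavine and at 1.02 with valproate, and GRHL3 at 0.54 and -1.09.

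The 6 pairs of relatives were tested for whether their changes with TGFb1 differed, with an exact two-sided permutation test over 4 TGFb1 and 4 control arrays, which shuffles all 8 arrays and cannot give a p below 0.0286. The change of ELF3 minus that of EHF was -2.02, that of GRHL1 minus GRHL2 was -1.0 and that of GRHL2 minus GRHL3 was 1.40, each at that smallest p and at 0.0571 after adjustment over the 6 pairs. The difference was -0.50 for ESRP1 minus ESRP2 (p 0.114, adjusted 0.137), 0.40 for GRHL1 minus GRHL3 (p 0.143, adjusted 0.143) and -0.19 for OVOL1 minus OVOL2 (p 0.0857, adjusted 0.129), all by the exact permutation test. No pair passed after adjustment, but at this size no pair could pass unless at least 4 of the 6 were at the smallest p, so these tests do not tell whether relatives responded alike. With the same-numbered arrays as pairs, the smallest exact p is 0.125, and 5 of the 6 differences, all but that of GRHL1 and GRHL3, were at it. EHF and GRHL2 were dim and did not pass, so the differences that involve them are close to the change of the other gene alone (-1.96 for ELF3). With the mean of all probe sets, OVOL1 minus OVOL2 was 0.11, the opposite sign.

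Over all 14 arrays, as a description of arrays that share 4 groups, ELF3 and GRHL3 had a Pearson correlation of 0.866 and ELF3 and ESRP1 of 0.111. ESRP1 and ESRP2 had -0.166, and ESRP1 and OVOL2 had -0.779. For deviations from the group means, the 4 values were, in the same order, -0.0743, -0.546, 0.426 and -0.181. The correlation of ESRP1 and GRHL1 was 0.696, and 0.803 for deviations from the group means, where TGFb1 replicates 2 and 4 were low in both. Among genes above the dimmest 40%, those most like ELF3 over the 14 arrays were TMPRSS2 (0.981), STAT3 (0.972) and ABCG2 (0.967), and those most like GRHL3 were EID3 (0.969), ZIC2 (0.967) and MYOF (0.954). For deviations from the group means, the correlations with ELF3 were 0.708, 0.841 and 0.691. Those with GRHL3 were only 0.376, 0.127 and 0.244, so its likeness lay mainly in the group means. ESRP1 was most like TOM1L1 (0.969), IMPACT (0.968) and FAM149B1 (0.965), ESRP2 most like RHCG (0.971), AJUBA (0.967) and CIRBP (0.962), GRHL1 most like NT5C2 (0.971), C12orf76 (0.963) and OCLN (0.949), and OVOL2 most like INSL3 (0.949), MIB2 (0.934) and SLC66A1 (0.933).

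**Figure D4:**
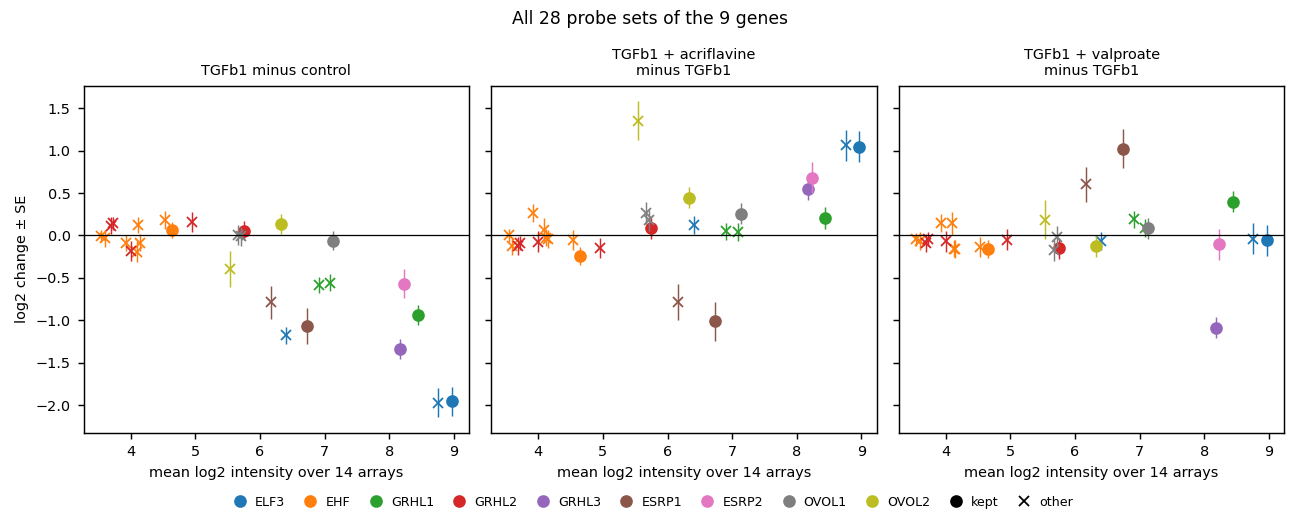
Log2 change ± SE (y axis) of all 28 probe sets against their mean log2 intensity over 14 arrays (x axis) for TGFb1 against control and each drug against TGFb1 alone. Circles are the kept probe sets, crosses the others, and colours the genes. The ELF3 probe set at a mean of 6.41 changed by -1.18 with TGFb1 and by 0.13 with acriflavine, and the second OVOL2 probe set changed by 1.35 with acriflavine.

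Genes linked to GRHL and OVOL factors in epithelia, a list of junction and barrier genes, were measured for 28 of 32 entries. Beside this list, 5.03% of all genes rose and 6.05% fell with TGFb1. Against TGFb1 alone, 16.4% of all genes rose and 12.3% fell with acriflavine, and 11.5% rose and 10.2% fell with valproate. With TGFb1, 13 fell and 1 rose (median -0.35), among them CDH1 (E-cadherin, -2.40), PPL (periplakin, -2.03) and CLDN3 (a claudin, -1.40). With acriflavine against TGFb1 alone, 12 rose and 1 fell (median 0.30), CDH1 by 2.85, SPINT1 (a protease inhibitor) by 2.78 and PPL by 2.76 among those that rose. With valproate 11 rose and 0 fell (median 0.28), SPINT1 by 1.95, MAL2 (apical transport) by 1.47 and LSR (tricellular junctions) by 0.82 among them. CDH1 itself changed by 0.63 with valproate and did not pass (adjusted p 0.126). EPCAM, an epithelial adhesion protein, fell by 1.38 with TGFb1 and rose by 1.97 with acriflavine and by 0.67 with valproate.

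Genes with exons that ESRP proteins regulate were measured for 14 of 18 entries, as total transcript level and not as splice form. The share of all genes called was 11.1% with TGFb1, 28.7% with acriflavine and 21.7% with valproate. With TGFb1, 4 fell and 1 rose (median 0.06), with FGFR2 (a growth factor receptor) at -0.92, EPB41L5 at -0.55 and ENAH (an actin regulator) at 0.48. With acriflavine 4 rose and 4 fell (median -0.19), with FGFR2 at 1.57, SCRIB (a polarity protein) at -1.10 and OSBPL3 at 0.98. With valproate 3 rose and 2 fell (median -0.09), with OSBPL3 at 0.83, ITGA6 (an integrin) at 0.75 and FGFR2 at 0.63.

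Of 28 other splicing regulators measured, 1 rose and 2 fell with TGFb1, a share like that of all genes, 11.1% of which were called in this comparison. RBM47, an RNA-binding protein of epithelia, fell by 0.98 ± 0.173 with TGFb1 (adjusted p 0.00166) and rose by 1.03 ± 0.187 with valproate against TGFb1 alone (adjusted p 0.000992). With acriflavine RBM47 changed by 0.05 ± 0.187 (adjusted p 0.890). RBM24 rose by 0.55 with TGFb1 and MBNL2 fell by 0.55. Acriflavine gave 2 that rose and 7 that fell (median -0.02), RBM38 at 0.97, TRA2A at -0.85 and RBFOX2 at -0.76 among them. This was close to the 28.7% of all genes called with acriflavine. Valproate gave 1 that rose and 12 that fell (median -0.23), SRSF3 at -0.74 and TRA2A at -0.70 among them, beside 21.7% of all genes called. QKI, a splicing factor of mesenchymal cells, changed by -0.40 with TGFb1 and did not pass (adjusted p 0.123).

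Other transcription factors of epithelia, 22 of 28 entries measured, gave 1 that rose and 6 that fell with TGFb1, 9 that rose and 0 that fell with acriflavine, and 1 each with valproate. Shares of all genes called were, in the same order, 11.1%, 28.7% and 21.7%. KLF5 changed by -1.30, TFAP2A by -1.01 and TBX3 by 1.01 with TGFb1. With acriflavine TFAP2C rose by 2.31, GATA2 by 1.60 and FOXA2 by 1.54. With valproate TBX3 rose by 0.85 and GATA2 fell by 0.35.

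Known inducers and repressors in epithelial-mesenchymal transition, 13 of 14 measured, gave 3 that rose and 1 that fell with TGFb1, beside 11.1% of all genes called. SNAI1 rose by 2.63 with TGFb1 and changed by -1.56 with acriflavine and by -0.66 with valproate, a fall in both, against TGFb1 alone. SNAI2 rose by 1.85 with TGFb1 and by 0.91 with valproate, and its change with acriflavine was 0.12 (adjusted p 0.524). ZEB1 changed by -0.07 with TGFb1 (adjusted p 0.855), fell by 0.52 with acriflavine (adjusted p 0.0290) and changed by -0.09 with valproate (adjusted p 0.795). TWIST2 fell by 0.83 with TGFb1 and rose by 1.06 with acriflavine. With acriflavine 2 rose and 3 fell in all, GSC by 0.54 among those that rose, and with valproate 1 rose and 2 fell, TCF3 by -0.25 among them. Over all genes, 28.7% were called with acriflavine and 21.7% with valproate.

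Some markers of epithelial and other cells also changed, and most of those of other cells did not pass. Of 6 epithelial markers, 4 fell with TGFb1, 5 rose with acriflavine and 2 rose with valproate. Over all genes, 11.1% were called with TGFb1, 28.7% with acriflavine and 21.7% with valproate. The summed intensities below are of each list. The summed linear intensity of the epithelial markers was 38654 to 40233 with acriflavine, 22924 to 29999 with valproate, 24403 to 33941 with TGFb1 alone and 37418 to 51678 in control. Of 6 leukocyte markers measured of 7, 1 rose with TGFb1, 2 fell with acriflavine and 2 rose with valproate (LAPTM5 rose with TGFb1, LAPTM5 and CD68 fell with acriflavine, and CD68 was among those that rose with valproate), with sums of 454 to 525 with acriflavine, 962 to 992 with valproate, 714 to 878 with TGFb1 alone and 613 to 770 in control. Of 5 endothelial markers, 1 rose with TGFb1, 0 changed with acriflavine and 1 rose with valproate, ESAM in both cases, with sums of 480 to 511 with acriflavine, 914 to 1144 with valproate, 454 to 776 with TGFb1 alone and 320 to 416 in control. Of 5 fibroblast markers, 1 rose with valproate, LUM, at a mean of 6.14 against 3.51 with TGFb1 alone, and the sums were 344 to 376 with acriflavine, 418 to 447 with valproate, 321 to 407 with TGFb1 alone and 336 to 378 in control. Of 5 hepatocyte markers, 1 fell with TGFb1 and 1 rose with each drug, with sums of 434 to 497 with acriflavine, 455 to 486 with valproate, 366 to 485 with TGFb1 alone and 384 to 476 in control. The part of these markers in the changes of the 9 genes was not tested.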

How the data were processed

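Per the submitters' processing notes, the authors ran RMA from the R package affy 1.44.0, which corrects background, normalises between arrays and gives 1 log2 intensity per probe set. The notes do not say which arrays entered 1 normalisation. RMA pulls low signals together, so changes of dim genes can be understated. RNA (200 ng per sample) was labelled with biotin, per the labels' protocols. Of 49193 probe sets, 44898 named 1 gene, 1825 several and 2470 none, by the platform annotation; RefSeq gene identifiers matched 44871. Per gene, the brightest probe set on average over 14 arrays was kept (18129 genes). Means of 4 groups were fitted with limma 3.58.1 (lmFit, eBayes) in R 4.3.3, and p-values were adjusted by Benjamini-Hochberg over all genes within each of 6 comparisons. The fit and the exact permutation test (SciPy 1.17.1) were tested on simulated data. Plots used matplotlib 3.10.9 (Python 3.11.15). The number of arrays limits the precision, and the study calls the replicates biological without saying whether they were separate cultures, so p-values measure the spread between these samples. Other probe sets of the 9 genes were tested in a fit of all probe sets that named 1 gene.

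The 9 genes and the gene lists were chosen with earlier results of these data known. Named were all 9 genes, from each list up to 3 that passed with the largest change per comparison, CDH1, EPCAM, SNAI1, ZEB1, RBM47 and QKI whatever their result, and the 3 genes most alike in pattern.

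Replicate numbers come from the sample titles. For TGFb1 and control, same-numbered arrays deviated together from their group means (correlations over genes 0.318, 0.342, 0.419 and 0.674). Replicates 1 and 2 each correlated more with another number (0.383 and 0.454). The numbers were taken as pairs in alternatives only, and the main fit and the main test of relatives used no pairing. In each of the other comparisons some same-numbered arrays correlated less than arrays of different numbers, so the numbers did not pair the arrays throughout. The highest same-number correlation there was 0.397, for replicate 2 of acriflavine and of TGFb1 alone. Alternatives were the replicate block, other scalings, the mean of all probe sets, a limit on brightness, 2 groups alone and each array left out.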

Additional observations from a re-analysis of the deposited data

Results flagged for a closer look

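In 2 of the 18 sets of 4 arrays that were checked (9 genes in the TGFb1 and control groups), 1 array lay far from the others. GRHL3 was at 7.66 in TGFb1 replicate 3 against 7.98 to 8.0 in the other TGFb1 arrays, a gap of 0.946 of the range. ESRP2 was at 7.25 in TGFb1 replicate 4 against 8.11 to 8.26, a gap of 0.852 of the range, where the limit is 0.829. Chance flags about 1 in 20 such sets. TGFb1 replicate 4 also had the largest deviation over all genes of the 14 arrays, and the values of ESRP2 without it stand beside its results.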

How the results depend on the processing

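Of 1356 recomputed values of the 9 genes and their pairs, 1322 kept their call, 26 lost it, 8 gained it and 0 that passed reversed. Besides the losses given with the results, the fall of ESRP2 with TGFb1 was lost when arrays were centred on the median (adjusted p 0.0568) or quantile normalised again (0.0613). The rise of GRHL1 with valproate was lost with the mean of its probe sets (0.0873), with centring (0.0931), with quantile normalisation (0.0775) and without both arrays numbered 4 (0.0529). With acriflavine against TGFb1 alone, 3 in place of 5 genes passed in a fit of these groups alone (ESRP2 0.0604 and OVOL2 0.0763 were lost), and 3 when the dimmest 40% of genes were left out, because ESRP1 and OVOL2 were then not tested; for the same cause 3 in place of 5 passed against control and 3 in place of 5 against valproate. Without acriflavine replicate 2, the kept EHF probe set fell with acriflavine against TGFb1 alone (-0.33, adjusted p 0.0446). With the replicate block, 5 of 9 genes again passed for TGFb1 against control, while 3319 in place of 2009 genes passed over the whole array. That count was 1018 with these groups alone, 3141 without both arrays numbered 4, 3694 with a term for them, and 1451 to 3235 with single arrays left out, the highest without TGFb1 replicate 4. For valproate against TGFb1 alone it was 3927, and 5980 without both arrays numbered 4. With the mean of all probe sets 4 of 6 pairs of relatives passed (adjusted p 0.0429) in place of 0. Flipping signs within the same-numbered pairs, a replicate block chosen after seeing the data, gave 0 of 6. That outcome was fixed in advance, because 4 pairs allow no exact p below 0.125. The same holds for the pairs of relatives without both arrays numbered 4, where the smallest exact p is 0.1. Centring arrays on their median takes the same amount from both relatives on an array, so it could not change their differences either. Values of relatives in all of these settings are among the 1322, though their call could not change. The cause of these shifts was not tested, except where stated. Array medians were also taken over the 18129 kept genes before any rescaling. Averaged per group, these medians differed between 2 groups by at most 0.0845 log2 units, for valproate against TGFb1 alone. The 14 arrays limit the precision, and EHF, GRHL2, ESRP1 and OVOL2 lay among the dimmest 40% of genes.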

Other observations

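Of 25 other ETS factors measured, 2 rose and 0 fell with TGFb1, ELK3 by 0.81 and ETS2 by 0.55. Beside the counts given here, 11.1% of all genes were called with TGFb1, 28.7% with acriflavine and 21.7% with valproate. With acriflavine against TGFb1 alone 6 rose and 4 fell, FLI1 by 2.05, ETV4 by 1.17 and ERF by 0.76 among those that rose. With valproate against TGFb1 alone 2 rose, ETV1 by 2.46 and ETV4 by 1.07, and 2 fell, ETS2 among them (-0.86). Of 3 CP2 factors, the relatives of the grainyhead family, 0 changed with TGFb1, UBP1 fell by 0.45 with acriflavine, and with valproate UBP1 changed by -0.22 and TFCP2 by -0.44, both passing the test.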
